A study of Oryctolagus cuniculus with 8 samples.

Results

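The miR-30 family was followed in extracellular vesicles from the oviducts and uteri of rabbits, for both arms of each of its precursors. Members were all names of the deposited table that read miR-30a, miR-30b, miR-30c, miR-30d or miR-30e once the species prefix, copy number and arm are removed. The rule found 11 of the 579 mature names, 5 from the 5p and 6 from the 3p side of 6 precursors, and all 11 had at least 1 read. Vesicles, the membrane-bound particles that cells shed into fluids, came from wild-type California x New Zealand white does that had given birth before. All 21 does were synchronised with eCG (25 IU), a gonadotropin, and ovulation was triggered 48 h later by a GnRH analogue (20 µg). Tracts were taken 14 to 15 h afterwards, so every group had been treated. Each of the 5 oviductal libraries pooled 3 animals, flushed with 1 mL per oviduct, and each of the 3 uterine libraries pooled 5, flushed with 2.2 mL per uterus. The pools hold 30 places for animals, so some of the 21 does served in more than 1 pool, and p-values measure the spread between pools that may share animals. The uterine libraries are titled 12, 3 and 4. The one titled 12 bears the number 1 in its library name, and the labels do not say whether it joins replicates, so its pool size, and with it the number of places, is uncertain.

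A precursor hairpin is cut into a duplex whose 5p and 3p strands are the arms. One of them usually enters an Argonaute protein and guides it to messenger RNAs, while the other is usually degraded. The 5p arms of this family share their seed, the stretch near the 5′ end that pairs with targets, so they can act on largely the same messages, and their 3p arms have other seeds. The family is known for restraining the change from epithelial to mesenchymal state, and miR-30d-5p is known as a miRNA that the endometrium secretes and the embryo can take up. RefSeq's table for the mOryCun1.1 assembly, which is not the build of the files and was used for neighbourhood only, matched all 6 precursors and placed them in pairs with no gene between them. The pairs were mir-30a with mir-30c-2, mir-30b with mir-30d inside a long non-coding RNA gene, and mir-30c-1 with mir-30e inside NFYC, which encodes a subunit of a transcription factor. The mature miR-30c-5p is written on both mir-30c rows with the same reads and was counted once. The 5p arms of miR-30a, miR-30d and miR-30e are nearly identical, and the sources used here do not say how reads matching several of them were assigned, so their separate levels are uncertain.

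The libraries held 42684 to 569087 miRNA reads, and a floor of 3 reads stood for 5.27 CPM (reads over all miRNA reads, on a scale of 1000000) in the deepest and 70.3 CPM in the shallowest. Oviductal replicates 2 and 3 were the shallowest. Markers of epithelium (miR-200c and miR-141, 4 of 4 names with reads) took 3.39% to 5.09% of oviductal and 0.470% to 2.36% of uterine reads. Most of these reads were miR-200c-3p, at means of 39515 CPM in oviductal and 13262 CPM in uterine libraries. For miR-141-3p the means were close, at 891 and 906 CPM. Markers of multiciliated cells (miR-34b, miR-34c and miR-449, 6 of 8 names with reads) took 2.77% to 6.12% and 0.495% to 3.38%. Smooth muscle markers (miR-143 and miR-145, 4 of 4 names) took 0.376% to 0.453% and 0.483% to 4.67%. Erythrocyte markers (4 of 5 names with reads) took 0.0922% to 0.288% and 0.123% to 0.768%, leukocyte markers (6 of 10) 0.102% to 0.245% and 0.0786% to 0.367%, and striated muscle markers (3 of 8) 0.00903% to 0.0378% and 0.0182% to 0.258%. The part of these cell types in the miR-30 values was not tested. In vesicles, fewer vesicles of a cell type and less miRNA per vesicle cannot be told apart.

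Of the 72791 reads of the family, 76.3% were ocu-miR-30d-5p (below without the prefix ocu), the dominant member in all 8 libraries. Its level was 19099.5, 21934, 19281, 20723.5 and 42872 CPM in oviductal replicates 1 to 5 and 13404, 16525.5 and 15563 CPM in uterine replicates 12, 3 and 4. Before scaling between libraries, every uterine value thus lay below every oviductal one, and oviductal replicate 5 stood far above the other libraries. There it was the fifth most abundant miRNA of all, against rank 11 to 14 elsewhere. The group means were 24782 ± 10178 CPM (SD, n = 5) and 15164 ± 1599 CPM (SD, n = 3). It was the only member among the 9 tested whose CPM did not overlap between the groups, while 10.1% of all tested miRNAs were separated in that direction. After TMM scaling, which corrects for miRNAs that take an unequal part of a library, uterine replicate 3 moved to 24825 CPM and the groups overlapped. The log2 fold change of uterine over oviductal vesicles was -0.29 ± 0.42 (SE), with a 95% interval of -1.17 to 0.60 and an edgeR adjusted p of 0.825. Leaving out uterine replicate 3 gave -0.81, leaving out uterine replicate 4 gave -0.04 and leaving out oviductal replicate 5 gave -0.02.

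In reads summed over all libraries ocu-miR-30c-5p, the 5p product of both mir-30c copies, came next, with 6396. Within the uterine libraries its mean of 1796 CPM was below the 2406 CPM of miR-30a-5p. Its oviductal values were 3359, 1513, 1945, 2215 and 4075 CPM in replicates 1 to 5, and its uterine values were 520 (replicate 12), 1784 (replicate 3) and 3082 CPM (replicate 4). The uterine libraries alone spanned most of the range of this miRNA, and replicate 12 was the lowest of all 8. That library also had the lowest shares of epithelial and multiciliated markers, 0.470% and 0.495% of reads. Epithelial markers took 2.36% in uterine replicate 3 and 1.44% in uterine replicate 4, which had more miR-30c-5p. A link between these values was not tested. The log2 fold change was -0.32 ± 0.56 (SE; 95% interval -1.49 to 0.85; edgeR adjusted p 0.842), and it was -0.01 without uterine replicate 12 and -0.77 without uterine replicate 3.

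The level of miR-30a-5p, at 5983 reads in all, was close to that of miR-30c-5p. It measured 2222, 1050.5, 1804, 1002 and 3839 CPM in oviductal replicates 1 to 5 and 2941, 2679.9 and 1596 CPM in uterine replicates 12, 3 and 4. Uterine replicate 12, the lowest library for miR-30c-5p, was the highest uterine library for miR-30a-5p. In CPM the oviductal values were widely spread and covered the uterine ones, while after TMM scaling uterine replicates 12 and 3 (3926 and 4026 CPM) lay above the highest oviductal value (3472 CPM). Uterine over oviductal, the log2 fold change was 0.75 ± 0.55 (SE; 95% interval -0.41 to 1.91; edgeR adjusted p 0.572). It was 0.20 without uterine replicate 3 and 1.15 without uterine replicate 4.

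The rarer miR-30e-5p had 195, 63.0, 164, 161 and 358 CPM in oviductal replicates 1 to 5. The value of replicate 2 rested on 3 reads. In uterine replicates 12, 3 and 4 it had 185, 233 and 508 CPM, so in CPM 1 uterine library lay above all oviductal ones and the other two within their range. After TMM scaling uterine replicates 3 and 4 (351 and 421 CPM) were above the oviductal maximum of 324 CPM. The log2 fold change was 0.92 ± 0.80 (SE; 95% interval -0.75 to 2.59; edgeR adjusted p 0.667).

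The rarest 5p member was miR-30b-5p. Oviductal replicates 1 to 5 held 175, 11, 4, 6 and 113 reads (396, 231, 93.7, 23.6 and 199 CPM), and uterine replicates 12, 3 and 4 held 1, 83 and 55 reads (4.30, 173 and 189 CPM). The 5 libraries with at least 10 reads lay between 173 and 396 CPM, and the low values came from oviductal replicates 3 and 4 and uterine replicate 12. Oviductal replicate 4 is not a shallow library, at 254590 reads. The log2 fold change of -0.35 ± 1.13 (SE; 95% interval -2.71 to 2.02; edgeR adjusted p 0.938) turned to 0.31 without oviductal replicate 1 and to 0.06 without uterine replicate 12.

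**Figure D1:**
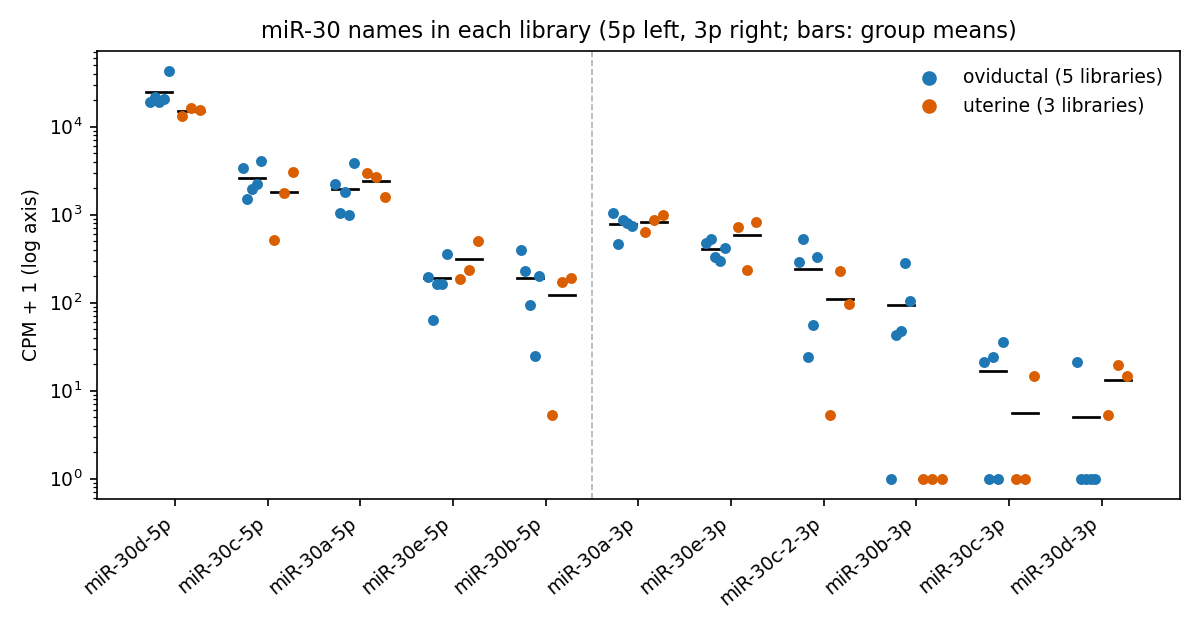
Level of each miR-30 name in each library, as CPM + 1 on a log axis, with oviductal libraries in blue, uterine libraries in orange and black bars at the group means. miR-30d-5p lies at 13404 CPM or above in every library, and miR-30b-3p is at 0 in the 3 uterine libraries and oviductal replicate 1.

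Among the 3p arms miR-30a-3p was the most abundant, with 1998 reads. It measured 1055, 462, 867, 801 and 739.8 CPM in oviductal replicates 1 to 5 and 628, 867 and 982 CPM in uterine replicates 12, 3 and 4. In CPM its highest value was 2.28 times the lowest over all 8 libraries, against 3.20 times for miR-30d-5p, 3.47 for miR-30e-3p, 3.83 for miR-30a-5p, 7.83 for miR-30c-5p and 8.06 for miR-30e-5p. That order turned with TMM scaling, where the span was 3.60 times for miR-30a-3p and 3.01 times for miR-30d-5p. In CPM the uterine values fell inside the oviductal range, and after TMM scaling uterine replicate 3 (1302 CPM) lay above it (362 to 1152 CPM). For this arm the log2 fold change was 0.42 ± 0.56 (SE; 95% interval -0.77 to 1.60; edgeR adjusted p 0.814).

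The level of miR-30e-3p, with 1084 reads, was 476, 525, 328, 295 and 422 CPM in oviductal replicates 1 to 5. In the uterus it was 727 CPM in replicate 12, 235 in replicate 3 and 817 in replicate 4. In CPM a pair of the uterine libraries lay above all oviductal ones and the remaining one below them. After TMM scaling that one, replicate 3 at 354 CPM, was inside the oviductal range of 255 to 519 CPM. The log2 fold change was 0.83 ± 0.62 (SE; 95% interval -0.48 to 2.14; edgeR adjusted p 0.582), and 0.34 without uterine replicate 12.

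The 3p arm of mir-30c-2, miR-30c-2-3p, was uneven in both groups. Oviductal replicates 1 to 5 had 126, 25, 1, 14 and 187 reads (285, 525, 23.4, 55.0 and 329 CPM), and uterine replicates 12, 3 and 4 had 1, 110 and 28 reads (4.30, 229 and 96.1 CPM). The libraries that were poor in miR-30b-5p, oviductal replicates 3 and 4 and uterine replicate 12, were also poor in this miRNA, although it comes from another precursor pair. The log2 fold change was -0.61 ± 1.15 (SE; 95% interval -3.02 to 1.81; edgeR adjusted p 0.874), and -2.50 without uterine replicate 3.

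The minor arm ocu-miR-30b-3p had the lowest p of the family. Its reads were 0, 2, 2, 71 and 59 in oviductal replicates 1 to 5 and 0 in each of the uterine libraries. Replicates 4 and 5 thus held nearly all of it, and oviductal replicate 1, the second deepest oviductal library, was at 0 like the uterine ones, so the groups overlapped. The oviductal mean was 94.3 ± 109.6 CPM (SD, n = 5). That is 31.5 times a floor of 3 reads over the 1003739 uterine reads pooled (2.99 CPM), or 16.1 times without oviductal replicate 4. The floors of the single uterine libraries were higher, at 12.9, 6.25 and 10.3 CPM in replicates 12, 3 and 4. A mean over libraries is thus set against a pooled floor, so these ratios are not bounds on the fold change. This arm passed the filter on low counts through oviductal libraries alone. It was not tested when 10 reads in 3 libraries were required, so the tests rest on the group where it was high. It did not pass (edgeR adjusted p 0.107, with 0.0234 to 0.871 over 17 alternatives) and passed under DESeq2, at 0.0234. DESeq2 called 6.29% of the miRNAs it gave an adjusted p for, and 1.14% as lower in uterine vesicles.

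The remaining members, miR-30c-3p and miR-30d-3p, did not pass the filter on low counts. The former, the 3p arm of mir-30c-1, had 9, 0, 1, 0 and 20 reads in oviductal replicates 1 to 5 and 0, 0 and 4 reads in uterine replicates 12, 3 and 4. The latter had 9 reads in oviductal replicate 1 and none in the other oviductal libraries, and 1, 9 and 4 reads in uterine replicates 12, 3 and 4. At these depths a level was detectable in some libraries only, and no difference was tested.

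Across the whole table, 9 of the 11 names were tested and none passed the adjusted p threshold of 0.05 by edgeR. The same test called 1.69% of all 178 tested miRNAs, 3 in number and none of them lower in uterine vesicles. At an unadjusted p under 0.05 there was 1 member, miR-30b-3p, against 15.7% of all tested miRNAs. Of the 9 members 4 had positive and 5 had negative fold changes, with a median log2 fold change of -0.29 against -0.02 for all tested miRNAs. Both arms of miR-30a and of miR-30e were positive, and the tested arms of miR-30b, miR-30c and miR-30d were negative, under TMM, RLE and upper-quartile scaling and with library totals only. These are signs of values that did not pass, and some turned in other fits. Only titles 3 and 4 occur in both groups, so a block by title number compares the libraries with those titles alone. With a block by title number miR-30b-5p, miR-30c-2-3p, miR-30c-5p and miR-30d-5p were positive (2.26, 2.07, 0.50 and 0.0077). With a block by library number miR-30b-5p and miR-30c-2-3p were (0.57 and 0.12), and without uterine replicate 3 miR-30a-3p was at -0.070. With TMM-scaled values no member was separated between the groups, while 13.5% of all tested miRNAs were.

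**Figure D2:**
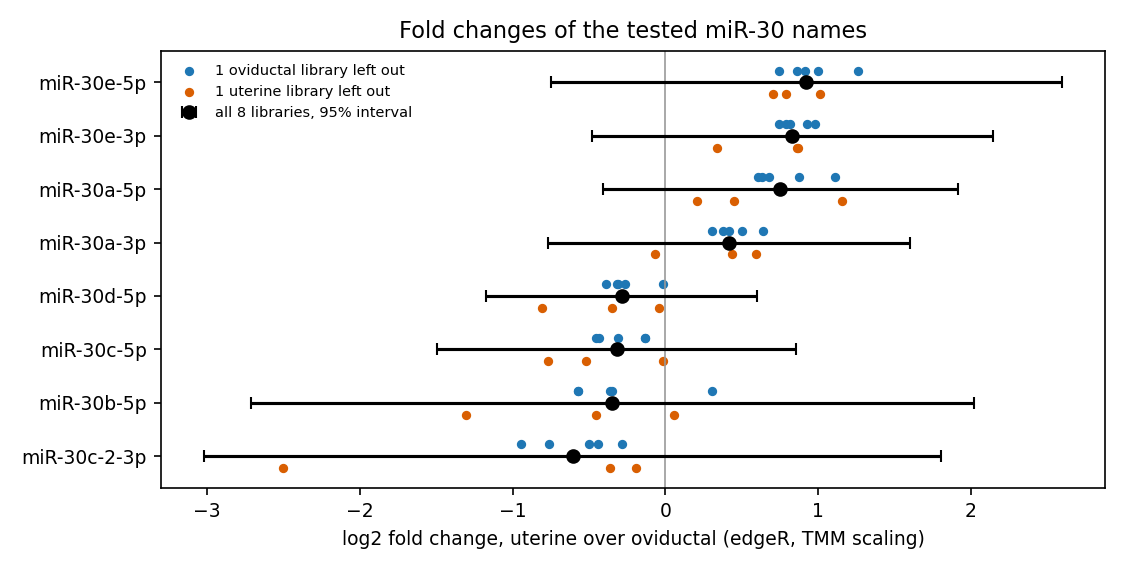
Log2 fold change of uterine over oviductal vesicles for 8 of the 9 tested miR-30 names (black, with the 95% interval of the edgeR fit), and the value after leaving out 1 oviductal (blue) or 1 uterine (orange) library. All 8 intervals include 0. miR-30b-3p is left out because its uterine reads were all 0 and its fitted fold change is not a bound.

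Summed over the 11 names, the family took 2.71%, 2.63%, 2.46%, 2.56% and 5.30% of miRNA reads in oviductal replicates 1 to 5 and 1.84%, 2.27% and 2.29% in uterine replicates 12, 3 and 4. The 95% Wilson intervals, which cover counting error only, were widest in oviductal replicate 3, at 2.31% to 2.61%, and ran from 5.24% to 5.36% in oviductal replicate 5. The uterine shares were all lower than the oviductal ones by a narrow margin, with means of 2.13% ± 0.253 (SD, n = 3) and 3.13% ± 1.21 (SD, n = 5). The difference of -0.997 percentage points was -0.456 without oviductal replicate 5, and -0.608 with miR-148a-3p left out of the library totals. It lay in the sum of the 5p arms, at 1.98% ± 0.239 against 2.98% ± 1.21. The 3p arms took 0.155% ± 0.0327 of uterine and 0.155% ± 0.0214 of oviductal reads. Among the 5p names the gap was mostly that of miR-30d-5p, with means of 15164 CPM in uterine and 24782 CPM in oviductal libraries. The means of miR-30c-5p and miR-30b-5p were also lower in uterine libraries. Those of miR-30a-5p (2406 against 1983 CPM) and miR-30e-5p (309 against 188 CPM) were higher. With TMM-scaled totals, an alternative added after the data were seen, the shares were 1.88% to 3.41% in uterine and 1.90% to 4.78% in oviductal libraries and overlapped. The TMM factors ranged from 0.666 in uterine replicate 3 to 1.29 in oviductal replicate 3.

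**Figure D3:**
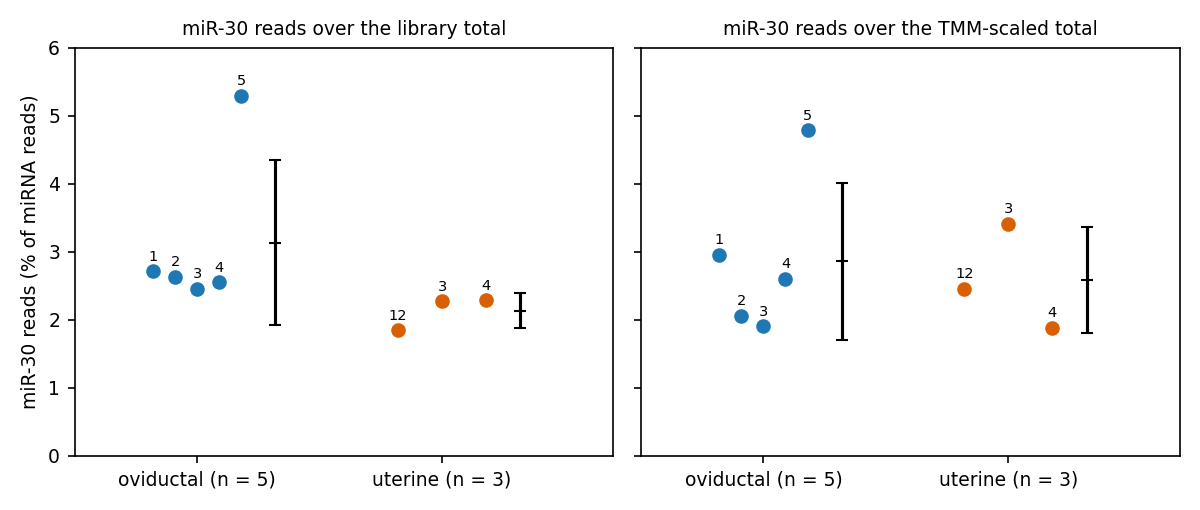
Share of miRNA reads taken by the 11 miR-30 names in each library, over the library total (left) and over the TMM-scaled total (right), with replicate numbers beside the points and the group mean ± SD as black bars. On the left the uterine libraries (1.84% to 2.29%) lie below the oviductal ones (2.46% to 5.30%). On the right the groups overlap.

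Within the family, miR-30d-5p made up 70.4% to 83.3% of oviductal miR-30 reads and 68.1% to 72.8% of uterine ones. The share of miR-30a-5p was 3.92% to 8.19% in oviductal and 6.98% to 16.0% in uterine libraries, and that of miR-30c-5p was 5.74% to 12.4% and 2.83% to 13.5%. These ranges overlapped. Ratios within a library do not depend on scaling between libraries, and 7 members with reads in every library could be set against miR-30d-5p. In 1 of the 7, miR-30e-5p, the ratios did not overlap between the groups, against 7.08% of the 113 tested miRNAs with reads in every library. Its log2 ratio to miR-30d-5p was -7.17 ± 0.73 in oviductal (range -8.44 to -6.62, SD, n = 5) and -5.75 ± 0.71 in uterine libraries (range -6.18 to -4.94, SD, n = 3). The difference was described without a test, since the ratio was singled out after its values were seen. Precursors that lie side by side gave very unequal amounts. For each read of miR-30b-5p there were 48.2 of miR-30d-5p in oviductal replicate 1 and 216 in oviductal replicate 5. There were 82.4 in uterine replicate 4 and 95.5 in uterine replicate 3. These libraries had more than 50 reads of miR-30b-5p. Where it had fewer, there were 94.9 and 206 in oviductal replicates 2 and 3. There were 879 in oviductal replicate 4 and 3117 in uterine replicate 12, on 6 reads and 1 read of miR-30b-5p. Ligation of adaptors favours some small RNAs over others, so ratios between different miRNAs describe reads and not molecules.

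**Figure D4:**
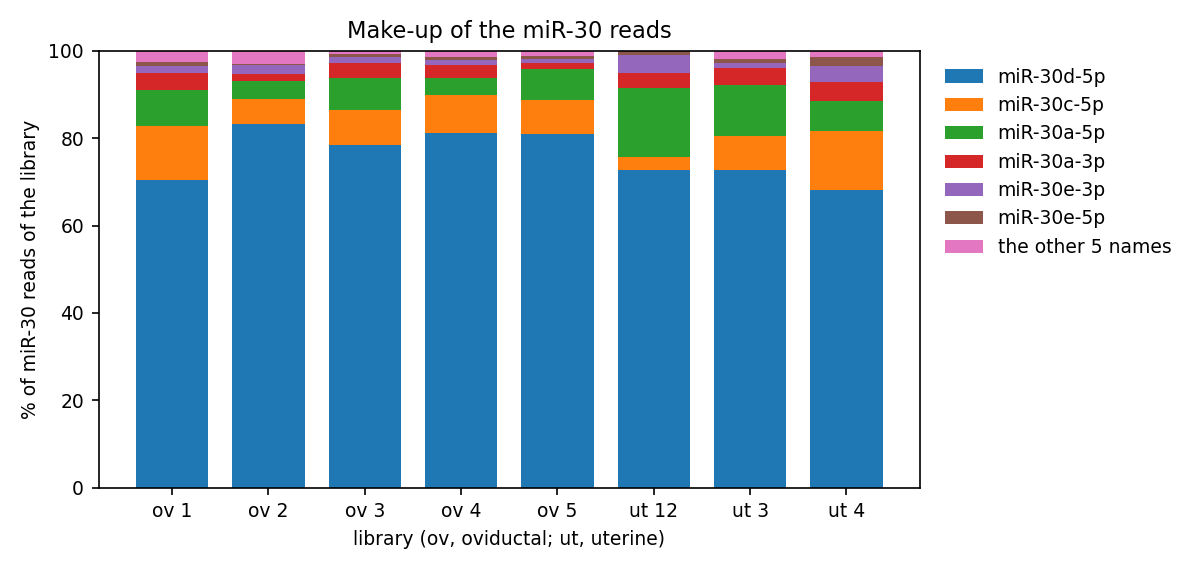
Make-up of the miR-30 reads in each library, as percent of the library's miR-30 reads, for 6 names and the sum of the other 5. miR-30d-5p takes 68.1% to 83.3% in every library, and uterine replicate 12 has the largest part of miR-30a-5p (16.0%) and the smallest of miR-30c-5p (2.83%).

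The precursors differed in which arm was found. For mir-30d there were 55555 reads of the 5p and 23 of the 3p arm, and for mir-30c-1 the 3p arm made up 0.529% of the reads assigned to its arms. For mir-30c-2 it made up 7.14%, with the 5p reads shared between the mir-30c copies, so that neither of these shares is that of 1 precursor. Both arms were abundant for mir-30a, where the 3p share was 31.2% ± 10.1 in oviductal (n = 5) and 26.7% ± 10.4 in uterine libraries (n = 3). In mir-30e 3p reads outnumbered 5p reads in all 8 libraries, at 69.1% ± 12.9 in oviductal and 63.9% ± 14.9 in uterine vesicles (SD), though only by 113 to 112 reads in uterine replicate 3. The 95% Wilson interval included an even split of the arms in that library (43.7% to 56.7%). It also did in oviductal replicates 3 (45.4% to 82.8%) and 5 (49.4% to 58.6%). By assigned reads the arm in excess was thus 3p for mir-30e and 5p for mir-30a, whose arms closely resemble its own. How reads matching several of these names were assigned is not known, so the arm shares of both precursors are uncertain.

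The ratio of 5p to 3p reads was compared between the groups for the 80 precursors whose arms together reached 10 reads in each library, 5 of them of this family. None of the 5 passed limma's test, which called 0% of the 80 precursors. At an unadjusted p under 0.05 none of the 5 passed either, the lowest being 0.159 for mir-30d, while 7.5% of the 80 precursors did. The log2 ratio of mir-30a was 1.20 ± 0.74 in oviductal (SD, n = 5) and 1.52 ± 0.77 in uterine libraries (SD, n = 3), a difference of 0.32 with a 95% interval of -1.92 to 2.56 (limma adjusted p 0.909). That of mir-30e was -1.24 ± 0.98 and -0.89 ± 0.99, a difference of 0.35 with a 95% interval of -1.94 to 2.64 (limma adjusted p 0.909). These intervals are wide enough to hold a change of several-fold in either direction.

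The precursor mir-30b had too few reads for that test. Its 3p share was 0% of 175 reads in oviductal replicate 1, which allows up to 1.71%, and 92.2% of 77 reads in oviductal replicate 4 (95% Wilson interval 84.0% to 96.4%). In oviductal replicate 5 it was 34.3% of 172 reads (27.6% to 41.7%), while oviductal replicates 2 and 3 had 13 and 6 reads. In uterine replicates 3 and 4 it was 0% of 83 and of 55 reads, which allows up to 3.61% and 5.45%, and uterine replicate 12 had a single read. The 3p arm was thus in excess in oviductal replicate 4 and not seen in oviductal replicate 1 or uterine replicates 3 and 4. When precursors with 10 reads in 6 libraries were admitted, the log2 ratio of mir-30b was higher in uterine vesicles by 3.46 ± 2.03 (SE; limma adjusted p 0.625). No uterine library had 3p reads, so the uterine ratios were set by the added pseudocount and the 5p reads. They were 1.58, 7.38 and 6.79 in uterine replicates 12, 3 and 4. The highest ratio of all libraries was 8.46, in oviductal replicate 1. The fitted difference therefore cannot measure a change between the arms.

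**Figure D5:**
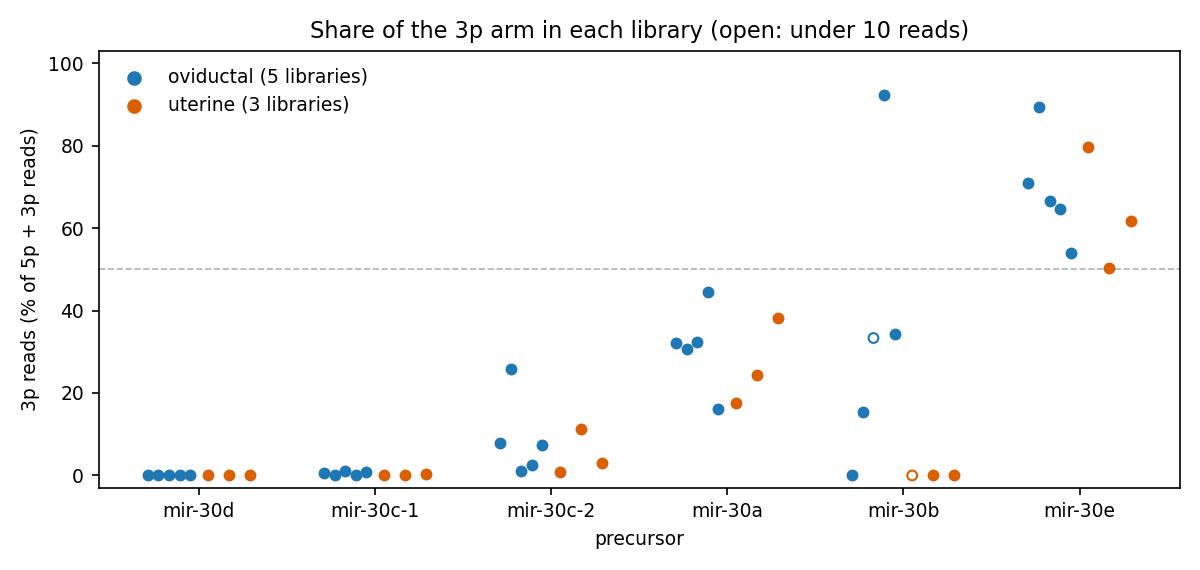
Share of the 3p arm in the reads of each miR-30 precursor, by library, with open points where both arms together had under 10 reads. The 3p share stays near 0 for mir-30d and mir-30c-1, exceeds 50% in every library for mir-30e, and ranges from 0% to 92.2% for mir-30b. For mir-30e the 95% Wilson intervals of oviductal replicates 3 and 5 and uterine replicate 3 include 50%.

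Other miRNAs known for holding cells in an epithelial state were set beside the family. Of the 8 names in the table (both arms of miR-200c, miR-141, miR-205 and miR-34a) 5 were tested, none passed in either direction by edgeR, and 1 had an unadjusted p under 0.05, where 15.7% of all tested miRNAs had. The TMM-scaled values of 1 of the 5, miR-205-5p, lay below the oviductal range in each uterine library, where 13.5% of all tested miRNAs were separated in either direction. There were 1 positive and 4 negative fold changes with a median of -0.71. The positive one was that of miR-141-3p, at 0.30 ± 0.62 (SE, edgeR adjusted p 0.894). The most abundant was miR-200c-3p, an epithelial repressor of ZEB factors, at 39515 ± 6557 CPM in oviductal (SD, n = 5) and 13262 ± 9178 CPM in uterine vesicles (SD, n = 3), with a log2 fold change of -1.13 ± 0.52 (SE; edgeR adjusted p 0.269). The next was miR-205-5p, of stratified and basal epithelia, at 2814 ± 615 and 401 ± 506 CPM, with -2.24 ± 1.15 (SE; edgeR adjusted p 0.426).

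The 169 tested miRNAs outside the family were ranked by how closely they followed the leading member of each arm. Over the 8 libraries, by Pearson's r of TMM-scaled log2 CPM, miR-30d-5p was followed most closely by miR-31-5p (r = 0.803), miR-9851-3p (0.792) and miR-100-5p (0.738). For miR-30a-3p they were miR-23b-3p (0.840), miR-340-3p (0.810) and miR-12090-5p (0.798). These are the highest of many values over few libraries that share their scaling and are given as a description.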

How the data were processed

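Small RNA reads of 8 libraries (5 oviductal, 3 uterine) were analysed from 1 deposited table of 615 rows. Its raw read counts per mature miRNA and precursor were made by the authors, per the file headers. The same deposited table holds RPM, which equalled counts over the column sum times 1000000 within 0.005 and were not used further. The submitters' processing notes name the build OryCun2.0 and FastQC. Aligner and counter were not given in the sources used here. For each of 579 names the row with most reads was used, and 354 names had reads. CPM were computed over these rows. No miR-30 name shared an identical profile with another name.

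Counts were tested with edgeR 4.0.16 (quasi-likelihood, robust, TMM, filterByExpr, Benjamini-Hochberg, adjusted p threshold 0.05) under R 4.3.3, fitted on all names. Arm ratios used limma 3.58.1 with a pseudocount of 0.5. SE were derived from the F statistic. DESeq2 1.42.0, limma-voom, other scalings, filters, blocks by number and leaving out libraries were alternatives. Procedures were tested on simulated data. A floor is 3 reads, and Wilson intervals (95%) cover counting error only. All miR-30 names were named, beside the 3 miRNAs most like the leading member of each arm and the 2 most abundant of the companion list. The members and lists were chosen with earlier results of these data known. A rule to name miRNAs that share the seed was not used here.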

Additional observations from a re-analysis of the deposited data

Results flagged for a closer look

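In 3 of 20 sets of oviductal values examined (levels, shares and arm ratios of the family), 1 library stood apart from the other 4, the gap to its nearest neighbour taking more than 0.710 of the whole range. For independent, normally distributed values chance alone would mark about 1 set in 20 (5%). The sets here overlap, and that of miR-30d-3p has reads in a single library, so this rate cannot be applied to the 3 flags. Oviductal replicate 5 stood apart for miR-30d-5p, at 42872 CPM, with 0.881 of the range, and for the share of the whole family, at 5.30% of reads, with 0.910. These are not separate, since miR-30d-5p makes up most of the family. The same library was the deepest and had the highest share of multiciliated markers, 6.12% of reads. The part of either was not tested. Oviductal replicate 1 stood apart for miR-30d-3p, at 20.4 CPM, since its 9 reads were the only oviductal ones.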

How the results depend on the processing

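No miR-30 name passed edgeR's test with all 8 libraries, and the count stayed at 0 in 18 of 19 alternatives and was 1 with DESeq2 (miR-30b-3p, adjusted p 0.0234). That name was tested in 17 of the alternatives. It was not tested with the stricter filter on reads or with both of the shallowest libraries left out. Over all tested miRNAs the alternatives called 0% to 13.5%. The highest share came without uterine replicate 3, where 27 of 200 were called, 15 of them lower in uterine vesicles. No arm ratio of the family passed in any of 14 alternatives. The protocol does not say that the numbers pair animals, so they were not taken as pairs. Deviations from the group means, over all tested miRNAs, had r = -0.153, -0.170 and -0.0831 between same-numbered libraries. Between the other libraries of the groups r ran from -0.167 to 0.195. With means of 3 and 5 libraries these values cannot decide whether the numbers are pairs. With a replicate block by library number the log2 fold changes of miR-30b-5p and miR-30c-2-3p turned positive, to 0.57 and 0.12, and the arm ratio of mir-30c-2 turned to -0.12. With a block by title number miR-30b-5p, miR-30c-2-3p, miR-30c-5p and miR-30d-5p turned to 2.26, 2.07, 0.50 and 0.0077. Only titles 3 and 4 occur in both groups, so these values rest on the libraries with those titles. Both blocks called 0 of 178 miRNAs, against 3 without. Leaving out 1 library at a time gave -1.30 to 0.31 for miR-30b-5p, -0.070 to 0.64 for miR-30a-3p, -0.033 to 0.73 for the arm ratio of mir-30a and -0.084 to 0.89 for that of mir-30e, which was -0.093 without both of the shallowest libraries. The cause of these turns was not tested. Over all tested miRNAs the median log2 fold change was -0.02, and it was -0.31 with library totals only and 0.19 with upper-quartile factors. In the shallowest libraries a member under 63.0 to 70.3 CPM could not be told from absence.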

Other observations

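The minor arms miR-30b-3p and miR-30d-3p, from precursors that lie side by side, had no library with reads of both. The 134 reads of miR-30b-3p came from oviductal replicates 2, 3, 4 and 5, and the 23 reads of miR-30d-3p came from oviductal replicate 1 and the 3 uterine libraries. Each was the only name of the table with reads in all of its 4 libraries and in none of the other 4. The share of miR-30d-3p in mir-30d reads was 0 of 24398 in oviductal replicate 5, the deepest library, which allows up to 0.0123%, against 0.107% of 8442 reads in oviductal replicate 1 (95% Wilson interval 0.0561% to 0.203%) and 0.113% of 7939 reads in uterine replicate 3 (0.0597% to 0.215%). In oviductal replicates 2 and 3, with 1044 and 823 reads of mir-30d, a share of that size was not detectable. The pattern rests in part on single reads, since miR-30b-3p had 2 reads each in oviductal replicates 2 and 3 and miR-30d-3p had 1 read in uterine replicate 12, all under the floor of 3 reads. It was noticed after the values were seen and no test was made of it. Of the names with no uterine read, 55 had oviductal reads, and miR-30b-3p was the only one with at least 50 of them.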
